A study of Mus musculus with 4 samples.

Results

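The 10 receptor genes described here, for the neuropeptides of cortical interneurons, were followed in ribosome-bound and total RNA of mouse cerebral cortex. They were the somatostatin receptors Sstr1, Sstr2, Sstr3 and Sstr4, the neuropeptide Y receptors Npy1r, Npy2r and Npy5r, the VIP receptor Vipr1, the CRH receptor Crhr1 and the cholecystokinin receptor Cckbr. They were taken by symbol: all 10 of 10 names were found among the 32531 gene names of each count file. The animals were adult mice of the Cbln1-EGFP-Rpl10a line NIDA030, in which ribosomal protein Rpl10a carries an EGFP tag under control of Cbln1 regulatory sequence. The IP group held 2 libraries of RNA immunopurified with anti-EGFP antibodies on tagged polysomes of homogenised cortex, and the input group held 2 libraries of total RNA. Both groups carry the transgene, no other genotype or treatment is given, and no IP from mice without the tag was analysed here. IP and input therefore differ both in the cells represented and in the RNA fraction, ribosome-bound against total, and in such bulk samples more cells of a type and more RNA per cell cannot be told apart.

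These peptides are released by subsets of cortical interneurons, cholecystokinin also by pyramidal cells, and act on G protein-coupled receptors of neighbouring cells. Somatostatin and neuropeptide Y receptors couple to inhibitory Gi and Go proteins, which lower cyclic AMP and open GIRK potassium channels. Vipr1 and Crhr1 couple mainly to Gs, which raises cyclic AMP, and Cckbr couples mainly to Gq, which mobilises calcium.

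Sstr2 was the receptor that stood out, at 2.18-fold higher abundance in IP, and the sequences below show why its counts can be told from those of its relatives. A 60-base stretch of coding sequence in the seventh transmembrane segment, the most alike window of that length in an alignment of the 4 somatostatin receptors, is given with bases shared by all 4 in capitals.
Sstr1: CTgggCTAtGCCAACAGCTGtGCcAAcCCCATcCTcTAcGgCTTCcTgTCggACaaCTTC
Sstr2: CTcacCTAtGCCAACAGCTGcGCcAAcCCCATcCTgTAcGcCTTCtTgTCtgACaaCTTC
Sstr3: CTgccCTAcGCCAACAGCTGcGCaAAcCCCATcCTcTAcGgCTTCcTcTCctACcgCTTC
Sstr4: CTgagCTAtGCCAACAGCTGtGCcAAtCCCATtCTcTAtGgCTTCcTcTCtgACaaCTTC
The windows, read 5′ to 3′ from GENCODE vM21 transcripts, lie at coding bases 931 to 990, 898 to 957, 928 to 987 and 886 to 945 in that order. Even here only 43 of 60 bases were shared by all 4, and the Sstr1, Sstr3 and Sstr4 windows differed from that of Sstr2 at 8, 12 and 10 bases. Over the whole coding sequence the identity of Sstr2 was 56.7% with Sstr1, 57.2% with Sstr3 and 56.7% with Sstr4, and no run of more than 20 bases was shared with any of them. Sstr1 and Sstr4 were the closest pair, at 66.3%. The neuropeptide Y receptors were further apart, at 41.4% to 48.2%. In 9 of the 10 receptor genes no 50-base word of the annotated transcripts occurred in a transcript of another gene. Npy1r was the exception, with 2.84% of its words found in other genes. No exon of the 10 genes overlapped an annotated exon of another gene on either strand.

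The promoter of Sstr2 is shown because it is the receptor whose abundance differed most between IP and input. RefSeq promoter windows, running from 250 bases before to 50 bases after the annotated start, matched 9 of the 10 receptors, all but Sstr1. The window of Sstr2 is chr11:113619077-113619376 on the plus strand of GRCm38.p6, with the cyclic AMP response element TGACGTCA in capitals.
Sstr2 promoter: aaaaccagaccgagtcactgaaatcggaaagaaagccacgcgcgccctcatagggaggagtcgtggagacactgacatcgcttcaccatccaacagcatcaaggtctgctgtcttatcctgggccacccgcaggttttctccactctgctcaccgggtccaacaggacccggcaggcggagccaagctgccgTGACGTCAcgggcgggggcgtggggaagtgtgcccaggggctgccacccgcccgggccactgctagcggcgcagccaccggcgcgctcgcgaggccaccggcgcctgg
The motif begins 58 bases before the annotated start and is palindromic, so it reads the same on both strands. Of 32851 promoter windows in the table, 588, or 1.79%, hold these letters on either strand. Sstr2 was the only one of the 9 matched receptors with the full motif. The windows were also searched for TATA, CCAAT and GC boxes, and that of Sstr2 held only GC boxes of these. The GC box GGGCGG was also in the windows of Npy2r, Vipr1 and Crhr1, and in 35.7% of all windows. The shorter core TGACG, which the full motif contains on both strands, was in 20.8% of all windows, and in those of Sstr2, Sstr3 and Vipr1 among the receptors. A match of letters is a description of these windows and was not tested as a binding site.

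Read depth allowed all 10 receptors to be tested. The gene counts of a library summed to 41334423 and 47567384 for IP 2 and IP 4 and to 41385301 and 39750468 for input 2 and input 4, so that 3 counts, taken as the floor, equal 0.0660 to 0.0790 CPM. CPM are counts scaled to a common library size by TMM, and floors reflect counting error alone. The IP libraries were on lane 1 and the input libraries on lane 2, and lane and group cannot be told apart. Separate animals are not stated for the libraries of a group, and p-values then measure spread between libraries that may be technical. Cbln1, the gene that drives the tag, was at 99.3 and 68.7 CPM in IP 2 and IP 4 against 11.9 and 8.55 CPM in input 2 and input 4. Rpl10a, the tagged ribosomal protein gene, went the other way and was called lower (edgeR adjusted p = 0.000358). It was at 3.11 and 2.92 CPM in IP 2 and IP 4 against 6.82 and 7.14 CPM in input 2 and input 4. A gene on the opposite strand overlaps 51 bases, or 2.1%, of the Rpl10a exons. Of 4 cortical glutamatergic markers (Slc17a7, Neurod6, Tbr1, Camk2a), 4 rose in IP. Their summed levels, mostly Camk2a, were 4900.4 to 5183.7 CPM in IP and 3406 to 3689 CPM in input. Of 5 GABAergic markers (Gad1, Gad2, Slc32a1, Lhx6, Dlx1), 0 rose and 2 fell by edgeR's test, with summed levels of 536 to 715 CPM in IP and 672 to 731 CPM in input, and of 4 oligodendrocyte markers (Mbp, Mobp, Mog, Mag) 1 rose and 3 fell, with sums of 409.9 to 422.1 CPM in IP and 718 to 735 CPM in input. Of the remaining lists, 2 of 5 astrocyte, 1 of 3 oligodendrocyte precursor, 1 of 5 microglial, 0 of 5 endothelial, 0 of 4 mural and 0 of 5 striatal markers rose, and 1, 1, 2, 0, 1 and 4 of them fell, in that order. For scale, the same edgeR test called 23.4% of the 16600 genes tested higher in IP and 22.4% lower. For the 10681 genes that averaged 5 CPM or more, it called 34.3% higher and 20.5% lower. Whether any marker list departs from these shares was not tested. No marker listed here was at 0 in any library, and the part of the markers in the receptor results was not tested.

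Of the 10 receptors, 3 rose in IP: Sstr2, Crhr1 and Cckbr. None fell by edgeR's quasi-likelihood test at a Benjamini-Hochberg adjusted p under 0.05, and 7 did not pass. The same threshold called 45.8% of the 16600 genes tested, 23.4% higher and 22.4% lower in IP, so the share of receptors called was not above that of genes in general. Of the 8 receptors whose mean reached 5 CPM, 3 were called higher and 0 lower, where 54.8% of the 10681 genes at that level were called, 34.3% higher and 20.5% lower. At an unadjusted p under 0.05, 3 receptors were higher and 1, Sstr1, was lower. DESeq2 called 3 receptors higher and 0 lower, and 42.3% of all genes. With library sizes alone, in place of TMM, 48.6% of all genes were called and the receptors split into 1 higher (Sstr2) and 4 lower (Sstr1, Sstr4, Npy1r and Vipr1). The median log2 fold change of IP over input was 0.045 over the receptors and -0.035 over all genes tested. In 9 of 10 receptors the libraries of IP and input did not overlap, as in 73% of all genes tested.

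**Figure D1:**
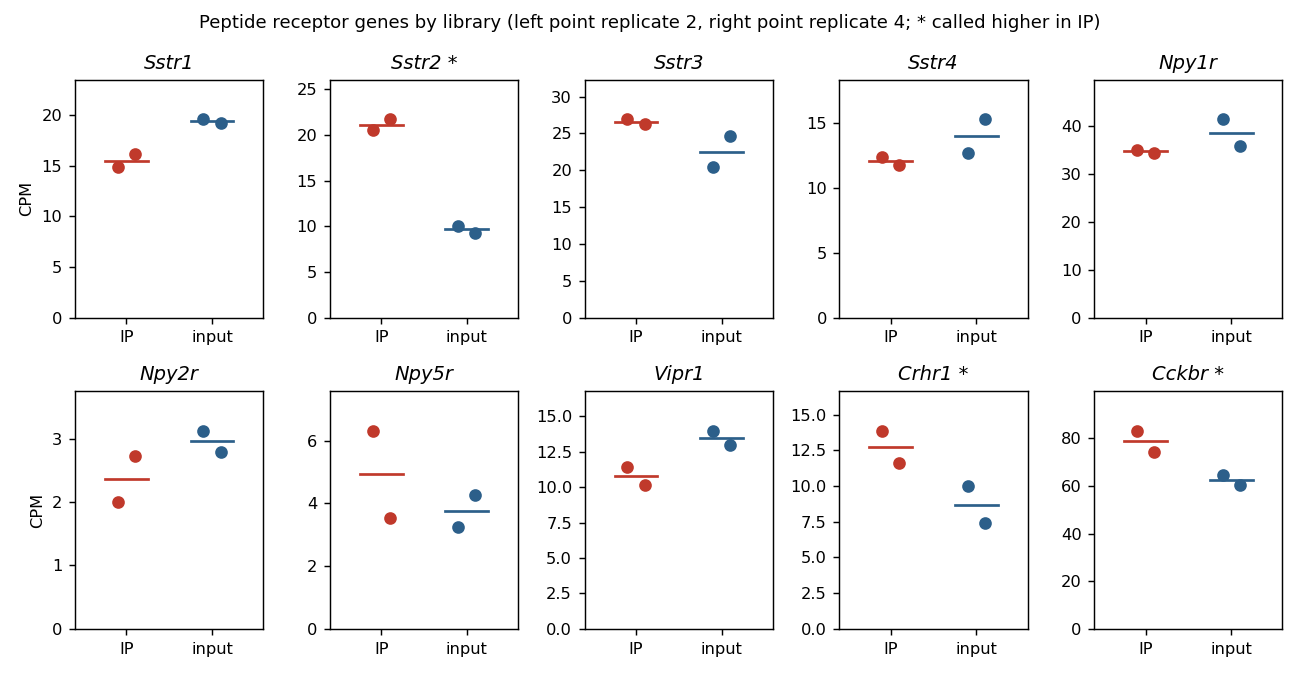
Normalised abundance (CPM, linear axes from 0) of the 10 receptor genes in the 2 IP libraries and the 2 input libraries, with replicate 2 at left and replicate 4 at right in each group and a bar at the mean. Sstr2 lies at 20.5 and 21.7 CPM in IP, above 10.1 and 9.27 CPM in input, whereas the Npy5r points of the 2 groups overlap.

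Among the somatostatin receptors, which share Gi and Go coupling, Sstr2 rose and the others did not pass. Sstr2, the receptor targeted by octreotide and related drugs, had 20.5 and 21.7 CPM in IP 2 and IP 4, from 779 and 938 counts. It had 10.1 and 9.27 CPM in input 2 and input 4, from 457 and 401 counts. Every IP library lay well above every input library. Sstr2 was 2.18-fold higher in IP, or 1.13 on the log2 scale (SE 0.15, edgeR adjusted p = 8.31e-06), and 97.0% of genes had a lower fold change. A rise of at least 2-fold was called for 3.67% of all genes tested. The adjusted p of Sstr2 ran from 3.42e-13 with a replicate block to 8.82e-05 with library sizes alone, over the 10 alternative settings tried. With the block the log2 fold change and SE of Sstr2 were 1.13 and 0.15, as without it. That range of p therefore does not measure how closely the libraries agree. The gene lies on the plus strand of chromosome 11, from 113619342 to 113626028 on GRCm38 (ENSMUSG00000047904.6), the GENCODE build used for all positions given here.

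Sstr1, a receptor of the other somatostatin subgroup together with Sstr4, had 14.8 and 16.1 CPM in IP 2 and IP 4, against 19.6 and 19.2 CPM in input 2 and input 4. Both IP libraries lay below both input libraries, but the log2 fold change of -0.32 did not pass (95% interval -0.63 to -0.02, edgeR adjusted p = 0.0775). It was called lower with library sizes alone (-0.58, adjusted p = 0.00237) and with a stricter filter on low counts (-0.38, adjusted p = 0.0324). With a replicate block, under which 50.3% of all genes were called against 45.8% without it, Sstr1 was called lower too (-0.32, adjusted p = 0.0403). Its place is chromosome 12, bases 58211772 to 58214444, plus strand (ENSMUSG00000035431.4). Sstr4, an intronless gene of 1424 bases, had 12.4 and 11.7 CPM in IP 2 and IP 4, against 12.7 and 15.3 CPM in input 2 and input 4. Its log2 fold change was -0.22 (95% interval -0.56 to 0.13, edgeR adjusted p = 0.305), and IP 2 and input 2 nearly met. The gene lies on the plus strand of chromosome 2, from 148395344 to 148396767 (ENSMUSG00000037014.4). Sstr3, a receptor known for its place in neuronal primary cilia, had 26.9 and 26.3 CPM in IP 2 and IP 4, against 20.4 and 24.7 CPM in input 2 and input 4. Its log2 fold change of 0.24 did not pass either (95% interval -0.05 to 0.53, edgeR adjusted p = 0.165), and with library sizes alone in place of TMM it was -0.020. The median of all genes shifts by -0.26 under that scaling, about as much as Sstr3. The Sstr3 gene is at chromosome 15, bases 78537008 to 78544685, minus strand (ENSMUSG00000044933.3).

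Set against each other per length of exon, Sstr2 held a larger share of the somatostatin receptors in both IP libraries than in both input libraries. Sstr2 made up 30.1% and 31.3% of the summed CPM per kb of the 4 genes in IP 2 and IP 4, against 16.8% and 14.4% in input 2 and input 4. Sstr1 made up 22.9% and 24.4% in IP 2 and IP 4, against 34.3% and 31.2% in input 2 and input 4. Sstr4 made up 27.4% and 25.4% in IP 2 and IP 4, against 32.0% and 35.5% in input 2 and input 4, and Sstr3 between 16.9% and 19.6% in all 4 libraries. Per length, Sstr2 was thus the most abundant of the 4 in each IP library and the least abundant in each input library, in input 2 only narrowly below Sstr3. The mean share of Sstr2 was 30.7% ± 0.839 in IP and 15.6% ± 1.75 in input (SD, n = 2 each), a difference of 15.2 percentage points. A two-sided exact permutation test gave p = 0.333, the smallest value that 2 libraries against 2 allow. That test therefore cannot decide whether the shares differ, and Sstr2 was the receptor that differed most in these same libraries. The shares do not depend on library scaling, but on the exon lengths of GENCODE vM21, which may differ from the annotation used for counting. They are parts of a whole, so a larger share of Sstr2 lowers those of the other genes. In CPM the changes of Sstr1 and Sstr4 did not pass.

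**Figure D2:**
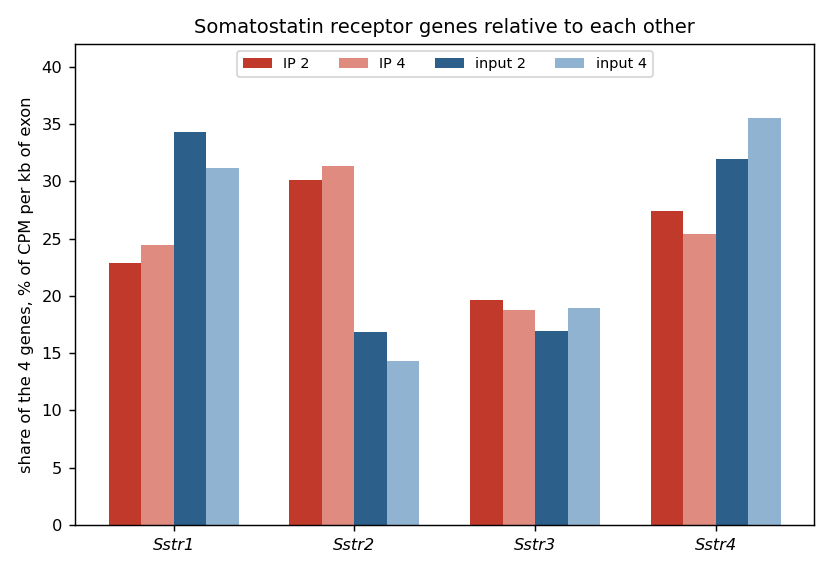
Share of each somatostatin receptor gene in the summed CPM per kb of exon of the 4 genes (y axis, percent), with 1 bar per library and IP left of input. Sstr2 stands at 30.1% and 31.3% in IP and at 16.8% and 14.4% in input. The shares of Sstr1 and Sstr4 are lower in both IP libraries than in both input libraries. Shares are parts of a whole, so a larger share of Sstr2 lowers those of the other genes.

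None of the neuropeptide Y receptors passed the test. Npy1r, the main postsynaptic receptor of neuropeptide Y in cortex, had 35.2 and 34.5 CPM in IP 2 and IP 4, against 41.5 and 35.8 CPM in input 2 and input 4. The groups did not overlap, yet IP 2 and input 4 lay within 1 CPM, and the log2 fold change was -0.15 (95% interval -0.40 to 0.10, edgeR adjusted p = 0.333). Npy2r, the receptor that acts mostly at axon terminals, was the least abundant of the 10 genes, with 2.0 and 2.73 CPM in IP 2 and IP 4, against 3.12 and 2.80 CPM in input 2 and input 4. From 76 to 142 counts a library, its log2 fold change of -0.32 had a wide 95% interval of -0.996 to 0.354 (edgeR adjusted p = 0.442). Its place is chromosome 3, bases 82538383 to 82548084, minus strand (ENSMUSG00000028004.12). Npy5r, a receptor best known for its part in feeding, was the gene whose libraries overlapped, with 6.32 and 3.54 CPM in IP 2 and IP 4, against 3.26 and 4.27 CPM in input 2 and input 4. Its log2 fold change was 0.38 (95% interval -0.22 to 0.99, edgeR adjusted p = 0.296). One library decided its direction, since without IP 2 the value was -0.084 and without IP 4 it was 0.75, which was called (adjusted p = 0.0360).

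Npy1r and Npy5r are neighbours on chromosome 8 of GRCm38 and are transcribed away from each other. Npy1r (ENSMUSG00000036437.6) spans 66697192 to 66706792 on the plus strand and Npy5r (ENSMUSG00000044014.9) spans 66679965 to 66688128 on the minus strand, with 9063 bases between them. Npy1r made up 76.9% and 82.0% of the summed CPM per kb of the 3 neuropeptide Y receptors in IP 2 and IP 4, against 84.5% and 80.6% in input 2 and input 4. Npy5r made up 18.7% and 11.4% in IP 2 and IP 4, against 8.97% and 13.0% in input 2 and input 4. The ranges of IP and input overlapped for both genes.

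Of the receptors coupled to Gs, Crhr1 rose and Vipr1 did not pass. Crhr1, the main CRH receptor of forebrain, had 13.9 and 11.6 CPM in IP 2 and IP 4, from 527 and 502 counts. It had 9.97 and 7.39 CPM in input 2 and input 4, from 453 and 320 counts. It rose 1.47-fold in IP, or by 0.55 on the log2 scale (SE 0.19, edgeR adjusted p = 0.0223), and all IP libraries lay above all input libraries, IP 4 and input 2 by the smallest margin. The call ended without IP 2 (0.42, adjusted p = 0.121), without input 4 (0.35, adjusted p = 0.225) and with library sizes alone (0.29, adjusted p = 0.212), and the adjusted p ran from 0.00280 to 0.225 over the 10 alternatives. Vipr1, which binds VIP and PACAP alike, had 11.4 and 10.2 CPM in IP 2 and IP 4, against 14.0 and 13.0 CPM in input 2 and input 4. Both IP libraries lay below both input libraries, and the log2 fold change of -0.32 did not pass (95% interval -0.67 to 0.03, edgeR adjusted p = 0.123). Crhr1 lies on the plus strand of chromosome 11, from 104132855 to 104175523 (ENSMUSG00000018634.10), and Vipr1 on the plus strand of chromosome 9, from 121642716 to 121672954 (ENSMUSG00000032528.5). Whether the change in Crhr1 differs from that in Vipr1 was not tested.

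Cckbr, the main cholecystokinin receptor of brain, was the most abundant receptor of the set. It had 83.2 and 74.2 CPM in IP 2 and IP 4, from 3161 and 3208 counts. It had 64.6 and 60.4 CPM in input 2 and input 4, from 2936 and 2615 counts. The groups did not overlap, and Cckbr rose 1.26-fold in IP (log2 fold change 0.33, SE 0.10, edgeR adjusted p = 0.0144). This call too ended without IP 2 (0.25, adjusted p = 0.105), without input 4 (0.28, adjusted p = 0.0962) and with library sizes alone (0.07, adjusted p = 0.595), and the adjusted p ran from 0.00143 to 0.595 over the alternatives. Cckbr lies on the plus strand of chromosome 7, from 105425731 to 105470898 (ENSMUSG00000030898.15). In simulated data on the 16600 genes of this comparison, 2% of genes given the smallest change, one about the size estimated for Cckbr, were called, against 64% of genes given a 1.5-fold change and 92% of genes given a 2-fold change (50 genes each, at 5 to 100 CPM). In that simulation 16400 genes were left unchanged, whereas 45.8% of genes were called in the data. Its adjusted threshold was therefore stricter, and these shares do not measure how often such changes are called in the data. The changes estimated for all receptors but Sstr2 were under 1.5-fold. Whether lack of power kept any receptor from being called was not tested.

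**Figure D3:**
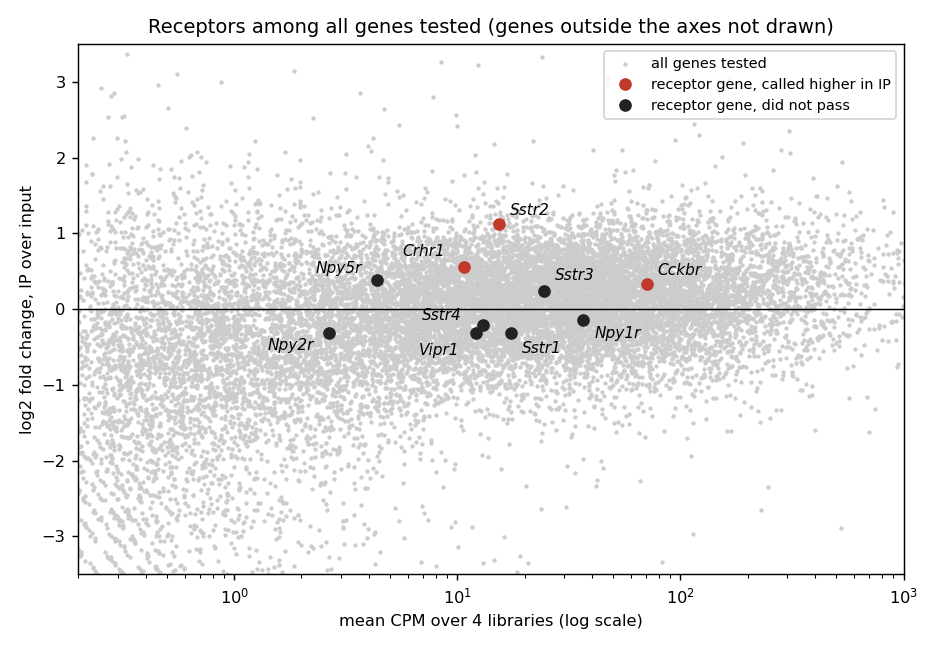
Log2 fold change of IP over input (y axis) against mean CPM over the 4 libraries (x axis, log scale) for genes tested that fall within the axes (grey) and the 10 receptors (red where called higher in IP, black where not passed). Sstr2, at 1.13, lies above 97.0% of all genes tested, and the other receptors lie within the bulk, between -0.32 and 0.55.

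Ranked by CPM per kb of exon, Cckbr stood first in both groups, at 27.5 ± 2.22 in IP and 21.8 ± 1.03 in input (SD, n = 2 each). Npy1r was the second in both, at 10.1 ± 0.127 in IP and 11.2 ± 1.15 in input. Sstr2 was the third in IP, at 9.85 ± 0.396, and the sixth in input, at 4.51 ± 0.261. In IP it was followed by Sstr4, Sstr1, Sstr3, Crhr1, Npy5r, Vipr1 and Npy2r, and the ranges of neighbours overlapped for Npy1r with Sstr2 and for Npy5r with Vipr1. In input the order after Npy1r was Sstr4, Sstr1, Sstr3, Sstr2, Crhr1, Vipr1, Npy5r and Npy2r, with overlapping ranges for Npy1r with Sstr4 and for Sstr4 with Sstr1. Npy2r was last in both, at 0.699 ± 0.153 CPM per kb in IP and 0.875 ± 0.0687 in input.

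The other receptors of the same peptides were mostly scarce: of 7, 3 had enough counts to be tested. Adcyap1r1, the PACAP receptor, had 133 and 140 CPM in IP 2 and IP 4, against 116 and 128 CPM in input 2 and input 4, and did not pass (log2 fold change 0.16, edgeR adjusted p = 0.191). Crhr2, the receptor of the urocortins, was covered by only 29 and 53 reads in IP 2 and IP 4 and by 13 in each input library. It rose by 1.76 on the log2 scale (SE 0.64, edgeR adjusted p = 0.0302), a call lost with DESeq2 (adjusted p = 0.0521), with library sizes alone (adjusted p = 0.0596) and without IP 4, input 2 or input 4 (adjusted p = 0.118, 0.157 and 0.145). Vipr2 stood below 1.2 CPM in every library (log2 fold change 0.12, edgeR adjusted p = 0.892), and its direction turned without IP 2 and without input 4, at -0.56 and -0.11. Cckar was counted 0 and 6 times in the IP libraries 2 and 4, and 9 and 0 times in the input libraries 2 and 4, Sstr5 had 1 count in IP 2 and none elsewhere, and Npy4r and Npy6r had 0 counts in all 4 libraries. At this depth a count of 0 allows up to 0.0660 to 0.0790 CPM.

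Genes for the ligands of these receptors moved in both directions. Of 14 genes for ligands and the CRH-binding protein, 8 were tested: 1 rose, 2 fell and 5 did not pass. The median log2 fold change of the 8 was -0.12. The share called was 37.5%, against 45.8% of all genes tested. Cck, whose peptide acts on Cckbr, rose by 0.54 on the log2 scale (SE 0.09, edgeR adjusted p = 5.39e-05), at 1105 and 988 CPM in IP 2 and IP 4 and 724 and 714 CPM in input 2 and input 4. Npy fell, at -0.85 on the log2 scale (SE 0.16, edgeR adjusted p = 0.000283), with 21.9 and 32.6 CPM in IP 2 and IP 4 and 56.0 and 42.6 CPM in input 2 and input 4. Cort, which encodes cortistatin, a further ligand of the somatostatin receptors, fell by 1.44 (SE 0.48, edgeR adjusted p = 0.0199) from low counts, but leaving out IP 4 or input 2 ended the call (adjusted p = 0.0777 and 0.471).

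Ligands that did not pass included the best known partner of Sstr2. Sst, the somatostatin gene, had 82.9 and 114 CPM in IP 2 and IP 4, against 87.0 and 82.4 CPM in input 2 and input 4, so that IP 2 lay between the input libraries. Its log2 fold change was 0.22 (95% interval -0.04 to 0.48, edgeR adjusted p = 0.157), and 1 library decided it: without IP 4 the value was -0.033, and without IP 2 it was 0.44, which was called (adjusted p = 0.00137). Vip (0.16), Adcyap1 (0.03), Crh (-0.31) and Crhbp (-0.28) did not pass either (edgeR adjusted p = 0.544, 0.903, 0.557 and 0.140). Receptor and ligand values come from the same libraries and the same pair of groups, so they are given side by side without a test of one against the other.

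**Figure D4:**
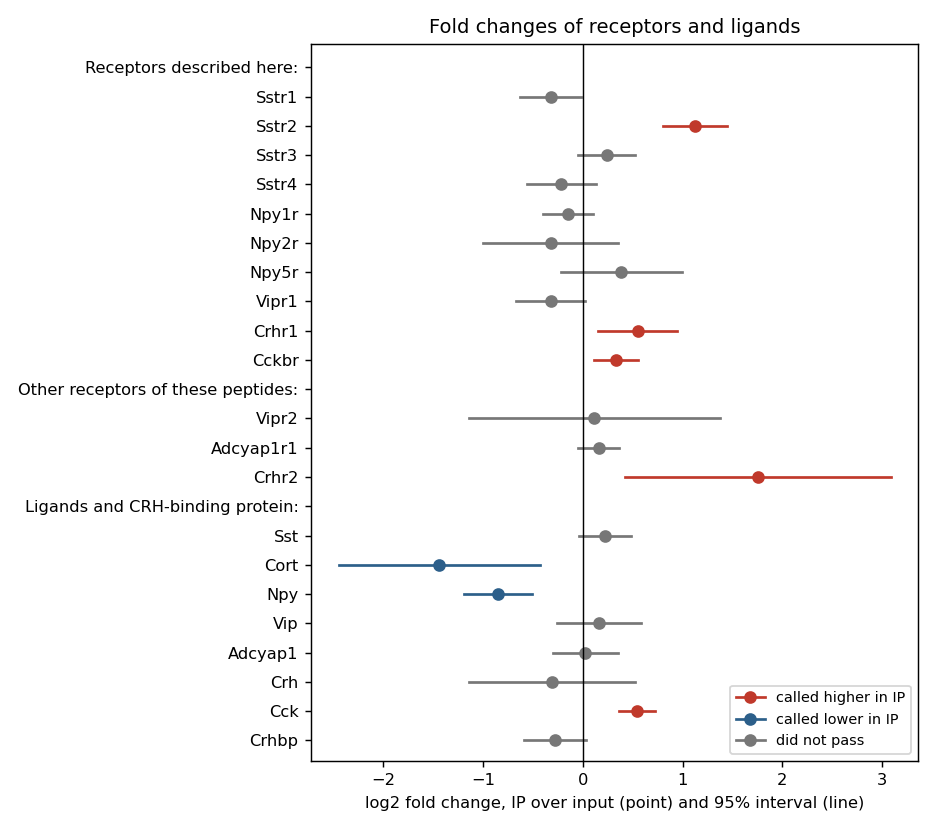
Log2 fold change of IP over input (x axis, points) with 95% intervals of the edgeR fit (lines) for the 10 receptors, for the other receptors of the same peptides and for the ligands that had enough counts. Red points were called higher in IP (Sstr2, Crhr1, Cckbr, Crhr2 and Cck), blue points lower (Npy and Cort), and the intervals of all grey points but Sstr1 span 0.

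Genes for the G proteins to which these receptors couple were mostly higher in IP. Of all genes tested, 23.4% were called higher and 22.4% lower. At a mean of at least 5 CPM these shares were 34.3% and 20.5%. Of 5 Gi and Go alpha subunits, 4 rose and 1 did not pass (median log2 fold change 0.43). Gnai1 rose by 0.63 (SE 0.09, edgeR adjusted p = 1.10e-05) and Gnao1, the most abundant of them in CPM, by 0.51 (SE 0.08, edgeR adjusted p = 4.61e-05). Gnai3 rose by 0.43 and Gnaz by 0.40, and with library sizes alone neither passed (0.17 and 0.14), nor did Gnaz without input 2 (adjusted p = 0.0974). Of the Gs subunits Gnas rose by 0.92 (SE 0.08, edgeR adjusted p = 5.39e-08), and Gnal did not pass (0.024, edgeR adjusted p = 0.860). Of the 3 Gq-class subunits Gna11 rose by 0.49 (SE 0.09, edgeR adjusted p = 0.000306), Gnaq did not pass (-0.11), and Gna14 rose from low counts, at 24 and 20 reads in the IP libraries 2 and 4 against 0 and 8 reads in the input libraries 2 and 4, a call lost without input 2 and with library sizes alone or DESeq2. The GIRK potassium channels opened by Gi and Go moved both ways: Kcnj9 rose by 0.39 (SE 0.10, edgeR adjusted p = 0.00446), Kcnj6 fell by 0.68 (SE 0.12, edgeR adjusted p = 0.000181), and Kcnj3 and Kcnj5 did not pass (-0.040 and -0.49). Kcnj9 did not pass with library sizes alone (0.13). Exons of Gnas, Gnao1, Gnal, Kcnj3, Kcnj6 and Kcnj9 overlap genes on the opposite strand, which makes their counts uncertain.

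The genes whose pattern over the 4 libraries was nearest to that of Sstr2 were taken from 3995 protein-coding genes within 2-fold of its mean CPM. By Euclidean distance between mean-centred log2 CPM values they were Nop58, at a distance of 0.0360, Pias4, at 0.0620, and Xab2, at 0.0727. Their fold changes of IP over input were 2.14, 2.15 and 2.27. With 4 libraries in 2 groups this likeness reflects mainly an equal fold change.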

How the data were processed

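RNA of cortex from adult Cbln1-EGFP-Rpl10a (NIDA030) mice was measured in 2 IP and 2 input libraries. Per the submitters' processing notes, the tools were STAR 2.0.0e and HTSeq, with mm10. Neither annotation nor strandedness of counting is given in the sources used here. Each deposited table holds whole-number counts, without normalisation. Lines that name no gene held 45.9% and 47.1% of the records in IP 2 and IP 4 and 52.0% and 49.2% in input 2 and input 4, and were left out. Reads without a unique alignment, 30.7% to 38.0% of records, were not assigned to genes.

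All genes were fitted together with edgeR 4.0.16 in R 4.3.3: TMM factors, filterByExpr by group (minimum count 10, minimum total 15), a quasi-likelihood test of IP over input with no block, and Benjamini-Hochberg adjustment over the 16600 genes tested, two-sided, at 0.05. The biological coefficient of variation was 12.5%. Standard errors and 95% intervals come from the F statistic of that test. Replicates differed well beyond sampling noise (chi-square per degree of freedom 21.2 for IP, 14.5 for input). In a test on simulated data 6 of 16400 unchanged genes were called. The simulated counts were drawn independently with the fitted dispersions, few changed genes and no lane effect. That number is therefore not a rate of false calls in the data.

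The alternatives tried were a test with DESeq2 1.42.0, its size factors or plain library sizes in place of TMM, other filters on low counts, a replicate block and leaving out each library. A second definition of gene length was added after seeing the data. The receptors and gene lists were chosen with earlier results of these data known, and some marker genes of those lists are not reported here. The named genes were all receptors, the other receptors and tested ligands of their peptides, and up to 4 called genes of each further list. The 3 genes most like the called receptor with the highest value were named too. Also named were uncalled Gs, Gq and GIRK genes, the glutamatergic, GABAergic and oligodendrocyte markers reported, Cbln1 and Rpl10a. Positions and exon lengths were read from GENCODE vM21 (GRCm38, the same assembly as mm10), and promoters from RefSeq on GRCm38.p6. Coding sequences were aligned with MAFFT 7.526, and figures were drawn with matplotlib 3.10.9.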

Additional observations from a re-analysis of the deposited data

How the results depend on the processing

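Of 100 values of the 10 receptors under alternatives, 85 kept their direction and their side of the threshold, 6 lost a call, 7 gained one and 2 turned sign. Sstr2 was called in all 10 alternatives, with log2 fold changes of 0.87 to 1.19. With library sizes alone 2151 genes were higher and 5910 lower in IP, against 3886 and 3719 with TMM. Receptors called were then 1 higher and 4 lower (Sstr1, Sstr4, Npy1r and Vipr1), against 3 and 0. That scaling also turned Sstr3 to -0.020, Adcyap1r1 to -0.10, Sst to -0.040, Vip to -0.10, Vipr2 to -0.14 and Adcyap1 to -0.23, and the stricter filter turned Adcyap1 to -0.033. The stricter filter called 1 receptor lower, Sstr1 (adjusted p = 0.0324). Crhr2, Vipr2 and Gna14 had too few counts to be tested under it. Leaving out 1 library gave 1 to 4 receptors higher and 0 lower. It gave Npy5r values of -0.084 to 0.75, Vipr2 -0.56 to 0.58, Sst -0.033 to 0.44 and Adcyap1 -0.11 to 0.18. Npy5r was called higher without IP 4 (adjusted p = 0.0360) and Sst without IP 2 (adjusted p = 0.00137). The cause of these differences was not tested, beyond the smaller number of libraries.

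With a replicate block 50.3% of all genes were called, 1 receptor was lower, Sstr1 (adjusted p = 0.0403), and 3 were called higher. The labels give no pairing beyond the shared numbers 2 and 4, and deviations of same-numbered libraries correlated at 0.048 across genes. With the longest transcript as gene length the Sstr2 share was 30.6% in IP and 15.5% in input.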

Other observations

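Receptors of other neuropeptides also moved in both directions. Of 23 further peptide receptor genes 18 were tested, and 4 rose, 3 fell and 11 did not pass. The median log2 fold change of the 18 was 0.14. The share called was 38.9%, against 45.8% of all genes tested. Ntsr1, the neurotensin receptor of deep-layer cortical neurons, had 29.2 and 18.7 CPM in IP 2 and IP 4 and 5.37 and 5.18 CPM in input 2 and input 4, and was 4.54-fold higher in IP (edgeR adjusted p = 5.74e-08). Its level was more than 3 times higher in each IP library than in each input library. Tacr3, a tachykinin receptor, was 2.61-fold higher in IP (edgeR adjusted p = 0.0107), a call lost without IP 2. Oprk1, the kappa opioid receptor, was 1.88-fold higher, at 9.82 and 9.88 CPM in IP 2 and IP 4 and 5.32 and 5.13 CPM in input 2 and input 4 (edgeR adjusted p = 0.000855). Hcrtr2, an orexin receptor, had a log2 fold change of -1.06 (edgeR adjusted p = 0.0270), and that call was lost without IP 2, input 2 or input 4.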
